A study of Triticum aestivum with 24 samples.

Results

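The 200 probe sets described here separated the wheat cultivars C306 and WL711 in the same direction under drought and under irrigation, while a tolerant and a susceptible bulk of their progeny lines did not differ at them by more than 0.5 on the log2 scale in either regime. They were chosen from 61115 probe sets of a wheat array, after 175 control probe sets had been left out of the 61290 in the table. Each signal was taken as log2(signal + 16) and each group as the median of its 3 arrays. Equal bulks were found at 32.7% of the 61115 probe sets and a parental difference of constant sign at 55.9%. Both held at 11227 probe sets, which were ranked by the smaller of their parental differences in the 2 regimes, called the score here, and the 200 highest were kept. The score and both bulk differences therefore chose the members and are given as a description.

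The material was flag leaf of bread wheat, Triticum aestivum, taken at the reproductive stage. Flag leaves came from 4 materials, each under drought and under irrigation, with 3 arrays for each of the 8 groups and 24 arrays in all. The tolerant bulk and the susceptible bulk each pooled 10 recombinant inbred lines, C306 was the drought-tolerant parent cultivar, and WL711 was the drought-susceptible parent cultivar. The series text calls the replicates biological, but the labels do not say whether they came from separate plants or separate pools, so p-values here reflect how far arrays of a group differ, which may be technical in part. Each bulk is 1 set of lines and each parent is 1 cultivar, and the sources used here give neither the length nor the severity of the drought.

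The flag leaf is the last leaf below the ear and supplies much of the sugar that fills the grain. Recombinant inbred lines are made by crossing 2 parents and selfing the progeny until each line is nearly homozygous, so that at any locus a line carries the allele of one parent or the other. A bulk of lines sorted for a trait is enriched for one parental allele near loci that govern the trait, and elsewhere it holds a mixture of both. Bread wheat is hexaploid, with 3 closely related gene copies (homoeologues) at most loci, and short array probes can hybridise to more than one copy. A probe set reads lower when less transcript is present and also when the transcript differs in sequence from the probes, and these cannot be told apart in the signals. In a whole leaf, fewer cells of a type and less RNA per cell cannot be told apart either.

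The arrays had been scaled before deposit, with a trimmed mean of 500.1 on each and median signals of 57.8 to 100.8, and arrays of the same group correlated at 0.909 to 0.969. The brightest probe set of each of 6 leaf genes reached a mean signal between 8190 for FBP (fructose-1,6-bisphosphatase of carbon fixation) and 79131 for LOC100049018 (rbcl, the large subunit of Rubisco). The 35 probe sets of these genes went down to 10.6, and 19 of them were no brighter than the brightest of the 11 probe sets of grain storage protein genes, at 3.7 to 119.3. LOC543181 (cys1) was bright on its 2 probe sets, at 22905 and 21350. It met the marker list for anther and pollen by symbol or synonym alone, so nothing about other organs is read from it. The root list matched no probe set, and no marker probe set was a member. The C306 drought arrays 1 and 3 stood apart at 14 spike-in control probe sets, with mean log2 signals of 13.56 and 12.98 against 10.95 to 12.07 on the other arrays. At 469 probe sets with an irrigated parental difference over 3, chosen on the irrigated arrays alone, the array labelled WL711 drought 1 lay within 1 log2 unit of irrigated C306 at 129 (27.5%). WL711 drought arrays 2 and 3 did so at 47 and 52. That array went against its label at part of the probe sets, among them several of the highest ranked members. Most counts that use it are also given without it, as are several named values, and leaving it out ended no named call.

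The median score was 1.66, a 3.17-fold difference between the parents, with quartiles of 1.46 and 2.34. The highest score was 8.63 and the lowest 1.34, or 2.54-fold. A score above 2 was reached by 68 members, above 3 by 26 and above 4 by 11. C306 was the higher parent at 117 members and WL711 at 83, which puts 58.5% of the members on the C306 side, beside 61.7% of all 11227 probe sets with equal bulks and constant sign.

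The parental difference had a median size of 1.96 under drought and 2.00 under irrigation. It was the larger under drought at 91 members, and at 111 members the 2 regimes differed by less than 0.5. The tolerant minus susceptible bulk difference had a median of −0.01 under drought and 0.02 under irrigation. It had the sign of the parental difference at 97 members under drought and at 108 under irrigation. The last member inside the score limit was Ta.9228.1.S1_at with a score of 1.3422, and the first outside was Ta.16258.1.S1_at with 1.3419. At the bulk limit, Ta.15913.1.A1_at was kept with an irrigated bulk difference of 0.4999, and Ta.5022.1.A1_at, with a score of 3.01, was left out at 0.5001.

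**Figure D1:**
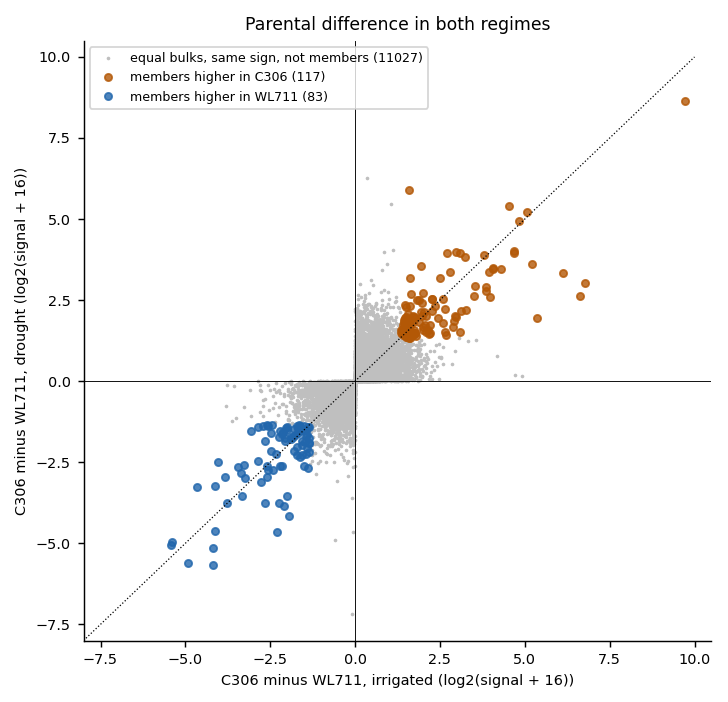
C306 minus WL711 under drought (vertical axis) against the same difference under irrigation (horizontal axis), in log2(signal + 16) of group medians; orange points are the 117 members higher in C306, blue points the 83 higher in WL711, and grey points the other probe sets with equal bulks and constant sign. The members fill the outer parts of both quadrants, from a score of 1.34 up to TaAffx.113846.1.S1_s_at with a difference of 8.63 under drought and 9.72 under irrigation.

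A parental score this high was reached by 1110 probe sets, and 18.0% of these, the 200 members, also had equal bulks. The signal of the higher parent had a median over members of 255.1 under drought and 291.7 under irrigation. The lower parent had medians of 30.2 and 34.3 and lay below the lowest array median at 128 members under drought and 131 under irrigation. At most members the lower parent was thus in the dim range of the array, where a value could not be separated from background because detection calls were not used here.

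The 3 arrays of C306 and the 3 of WL711 did not overlap at 120 members under drought, where 19.4% of all 61115 probe sets had such separate arrays. Under irrigation they did not overlap at 169 members, where 32.7% of all probe sets did so. Since the rule used these arrays, nothing is read from either count. Both regimes had separate parental arrays at 110 members, where 8.25% of all probe sets did. With the array labelled WL711 drought 1 left out, the drought count was 159 members, with 31.1% of all probe sets, and the count for both regimes 144, with 13.1% of all.

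Array by array, the members higher in C306 had median signals of 97.8, 103.1 and 140.0 in the tolerant bulk and 95.0, 127.6 and 129.1 in the susceptible bulk under drought, against 271.8, 199.2 and 248.0 in C306 and 44.1, 53.2 and 44.9 in WL711. Under irrigation they had 131.6, 112.4 and 111.2 in the tolerant bulk and 124.1, 131.0 and 131.9 in the susceptible bulk, against 227.8, 183.3 and 224.8 in C306 and 25.6, 30.6 and 36.4 in WL711. On every array the bulks lay between the ranges of the parents.

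The members higher in WL711 had drought medians of 203.6, 226.5 and 250.9 in the tolerant bulk and 224.0, 236.3 and 206.9 in the susceptible bulk, against 21.9, 37.5 and 49.9 in C306 and 159.0, 360.4 and 331.7 in WL711. Under irrigation the medians were 209.6, 193.7 and 206.0 in the tolerant bulk and 213.1, 195.1 and 209.6 in the susceptible bulk, against 41.7, 65.2 and 46.2 in C306 and 357.2, 337.4 and 361.7 in WL711. Here the array labelled WL711 drought 1 fell below all bulk arrays, and the other 5 WL711 arrays lay above them. It was on the C306 side of the midpoint between the parents at 54 of the 200 members (27.0%), against 9 and 19 members for WL711 drought arrays 2 and 3. C306 drought array 2 was on the WL711 side at 31 members (15.5%), against 9 and 17 for C306 drought arrays 1 and 3. Over all 1735 probe sets with a drought parental difference over 2, C306 drought array 2 crossed the midpoint most often, at 511 (29.5%), and the array labelled WL711 drought 1 did so at 323 (18.6%).

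**Figure D2:**
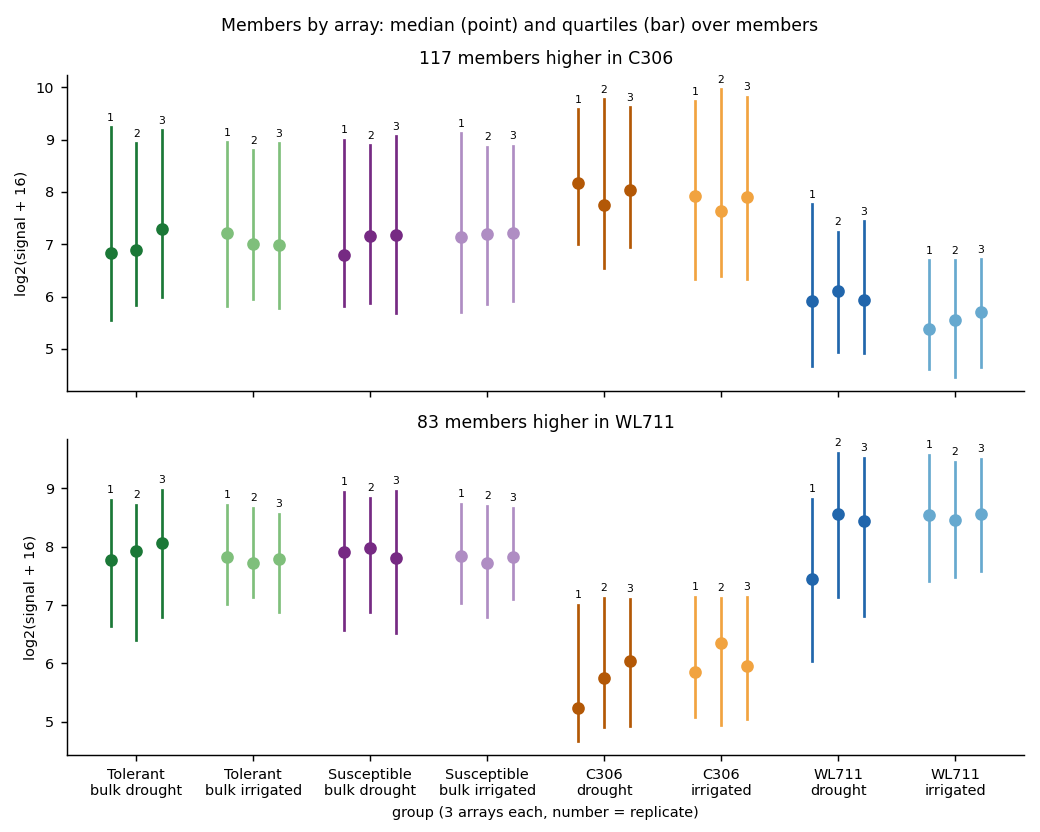
Median (point) and quartiles (bar) of log2(signal + 16) over the 117 members higher in C306 (upper panel) and the 83 higher in WL711 (lower panel) on each of the 24 arrays, with the replicate number above each bar. The bulk medians lie between those of the parents in both panels, apart from WL711 drought array 1 in the lower panel, whose median signal of 159.0 is under every bulk array.

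Among the members higher in C306, TaAffx.113846.1.S1_s_at ranked first. Its bulk signals under drought were 13553, 14027 and 10759 in the tolerant bulk and 12286, 11982 and 12434 in the susceptible bulk, against 34785, 27634 and 29702 in C306 and 25323, 4.8 and 58.8 in WL711. Under irrigation it had 19229, 23381 and 23570 in the tolerant bulk and 21767, 27687 and 22307 in the susceptible bulk, against 19044, 19883 and 20725 in C306 and 7.6, 8.7 and 7.0 in WL711. WL711 thus read under 10 on 4 of its 6 arrays and 58.8 on drought array 3, and drought array 1 read at the C306 level. Irrigated bulk arrays overlapped the range of irrigated C306, while drought bulk arrays lay below all 3 drought C306 arrays.

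Ta.3784.1.S1_at had no such exception among its arrays. Under drought it gave 12599, 12602 and 14460 in the tolerant bulk and 12649, 14402 and 13592 in the susceptible bulk, against 25872, 19249 and 22807 in C306 and 606.8, 726.0 and 734.4 in WL711. Under irrigation it gave 12164, 10204 and 12277 in the tolerant bulk and 10474, 7544 and 11292 in the susceptible bulk, against 15431, 15412 and 15440 in C306 and 531.7, 490.6 and 852.6 in WL711. All 12 bulk arrays lay between the parents of their regime. On the linear scale the bulk mean was 0.56 of the way from WL711 to C306 under drought and 0.72 under irrigation. Other probe sets with its transcript cluster number differed less between the parents. Ta.3784.1.S1_a_at, at a mean signal of 22219, had C306 minus WL711 at 0.87 under drought and −0.09 under irrigation, in log2. Another, at a mean of 21014, had 0.87 and −0.12, and a further one, at 6471, had 0.88 and 1.13. The member Ta.3784.1.S1_x_at had 3.19 and 1.62.

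Ta.23366.2.S1_x_at read 2718, 2138 and 3215 in the tolerant bulk and 2144, 1942 and 2597 in the susceptible bulk under drought, against 8496, 3426 and 6684 in C306 and 123.9, 143.5 and 158.0 in WL711. Under irrigation it read 1160, 1081 and 1466 in the tolerant bulk and 862.2, 654.9 and 824.3 in the susceptible bulk, against 2561, 2380 and 2504 in C306 and 87.8, 122.2 and 92.2 in WL711. The groups did not overlap between parents, and the drought arrays of both bulks and both parents were above their irrigated ones. In WL711 the margin was narrow, with 123.9 as the lowest drought signal against 122.2 as the highest irrigated one. Ta.4957.2.A1_at kept the same order, at 1639 to 2012 on the 6 drought bulk arrays against 2243 to 2694 in C306 and 137.4 to 171.7 in WL711. Its irrigated arrays gave 850.8 to 1445 in the bulks against 2070 to 2517 in C306 and 34.6 to 88.0 in WL711. Another probe set with the cluster number of Ta.4957.2.A1_at, at a mean signal of 1093, did not share its direction. There C306 minus WL711 was −0.07 under drought and −3.85 under irrigation, in log2.

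At 2 further members of this group the array labelled WL711 drought 1 was again at the C306 level. Ta.9698.1.S1_at had 328.4, 294.5 and 267.9 in the tolerant bulk and 380.3, 321.7 and 238.5 in the susceptible bulk under drought, against 908.7, 831.2 and 772.3 in C306 and 1374, 1.6 and 6.9 in WL711. TaAffx.94115.1.S1_at had 10154, 12125 and 8944 in the tolerant bulk and 11119, 10942 and 11634 in the susceptible bulk under drought, against 5502, 4367 and 5346 in C306 and 8742, 292.9 and 313.2 in WL711. At this second member all 6 drought bulk arrays were above both parents, and its irrigated bulk arrays, at 6449 to 8850, surrounded the irrigated C306 arrays at 6886 to 7057. The irrigated WL711 arrays stood at 246.5 to 259.8.

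Among the members higher in WL711, TaAffx.4964.1.S1_at had the highest score, 5.05. Its drought signals were 853.0, 730.9 and 586.5 in the tolerant bulk and 867.1, 567.3 and 598.1 in the susceptible bulk, against 6.7, 7.3 and 64.9 in C306 and 811.3, 753.8 and 626.1 in WL711. Its irrigated signals were 540.5, 512.6 and 546.4 in the tolerant bulk and 673.8, 873.1 and 564.6 in the susceptible bulk, against 3.4, 2.4 and 3.3 in C306 and 814.6, 929.3 and 726.8 in WL711. Both bulks overlapped WL711 under drought, and the susceptible bulk did so under irrigation too, while every C306 array was far below.

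Ta.9304.1.S1_at gave 439.4, 299.6 and 574.4 in the tolerant bulk and 316.8, 537.7 and 507.9 in the susceptible bulk under drought, against 8.5, 7.3 and 78.4 in C306 and 624.3, 1182 and 1383 in WL711. Ta.23963.1.A1_at gave 843.3, 713.3 and 909.1 in the tolerant bulk and 709.4, 726.0 and 724.8 in the susceptible bulk under drought, against 5.0, 2.3 and 65.3 in C306 and 431.6, 1062 and 1085 in WL711. The C306 and WL711 arrays were apart at both. C306 drought array 3 read higher than the other C306 drought arrays at these members and at TaAffx.4964.1.S1_at, and it also read 102.7 at Ta.4077.3.S1_a_at beside 16.5 and 9.1.

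Ta.4077.3.S1_a_at and Ta.11068.1.A1_at were the members of this group at which the array labelled WL711 drought 1 sat at the C306 level. The first had 226.5 to 458.1 on the drought bulk arrays, against 9.1 to 102.7 in C306 and 7.1, 1004 and 1018 in WL711. The second had 117.9 to 461.5 on the drought bulk arrays, against 5.0 to 21.7 in C306 and 19.3, 1791 and 1016 in WL711. Ta.15000.1.S1_at, by contrast, had 3 WL711 drought arrays close together, with 62.6 to 97.9 in the bulks against 2.8 to 33.6 in C306 and 405.5 to 638.2 in WL711. In all, WL711 drought array 1 was at the other parent's level at 5 of these 12 leading members.

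**Figure D3:**
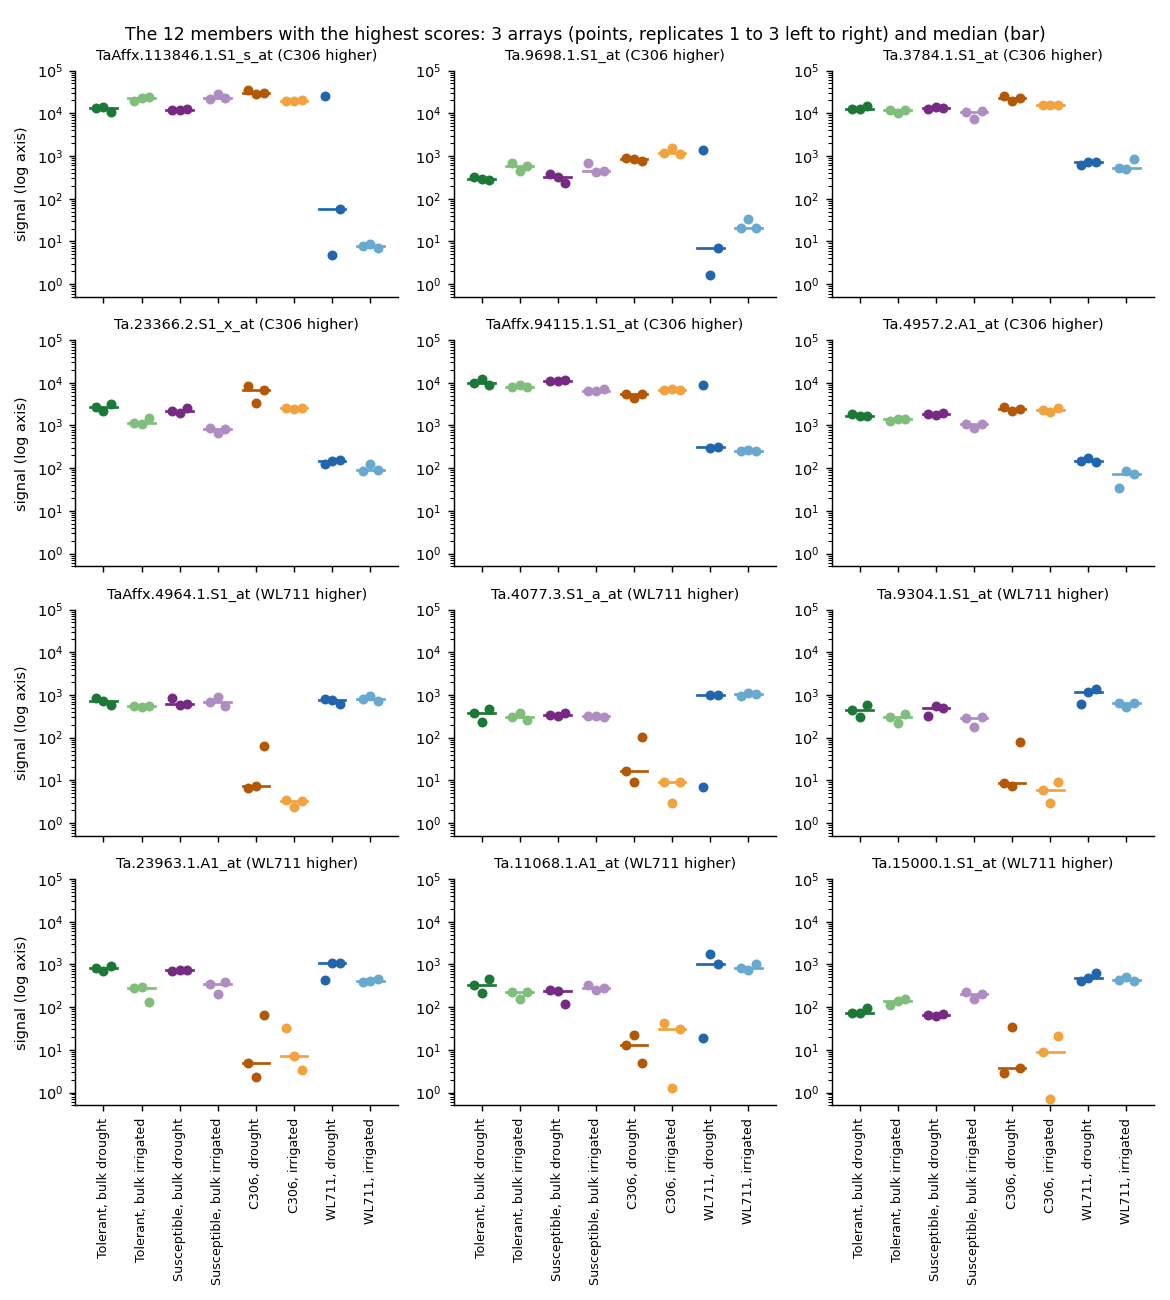
Signal on a log axis of the 6 highest scoring members on the C306 side and the 6 on the WL711 side, in 8 groups of 3 arrays each (points, in replicate order) with the group median as a bar. In 5 of the 12 panels the first WL711 drought point lies at the level of C306, for example at 25323 for TaAffx.113846.1.S1_s_at, where the other WL711 drought points are at 4.8 and 58.8.

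Gene symbols were available for 4 members, out of 1273 annotated probe sets of 771 genes on the array. All 4 symbols were present in a RefSeq gene table of the assembly IWGSC CS RefSeq v2.1, which gave them no further name. Ta.28695.6.S1_at, annotated to LOC542898, was among the brightest members. Its drought signals were 13725, 14041 and 13204 in the tolerant bulk and 12099, 13052 and 12173 in the susceptible bulk, against 46272, 31507 and 42194 in C306 and 2078, 5639 and 5952 in WL711. Its irrigated signals were 9735, 11052 and 10138 in the tolerant bulk and 6905, 7710 and 7526 in the susceptible bulk, against 18034, 19047 and 18853 in C306 and 1280, 1369 and 1123 in WL711. No 2 groups of the same regime overlapped, and the tolerant bulk was above the susceptible bulk in both. Both other probe sets of LOC542898 were dim, with group medians of at most 45.7, and differed between the parents by 0.45 and 1.56 on the log2 scale under drought. Brighter probe sets shared the transcript cluster number of Ta.28695.6.S1_at but differed less between the parents than its 2.90 under drought and 3.86 under irrigation. At a mean signal of 37391, C306 minus WL711 was 0.63 under drought and −0.62 under irrigation, in log2. At means of 32497 and 16902 it was 0.31 and −0.33 under drought, and −0.07 and −1.31 under irrigation. A further one, at 1196, kept the direction of the member, with 1.76 and 0.78.

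Ta.893.1.S1_at, annotated to LOC543320, was a dimmer member, at 27.5 to 81.8 on the drought bulk arrays against 119.9 to 162.2 in C306 and 3.7 to 44.2 in WL711. Ta.6411.1.S1_at, annotated to LOC100125700, was higher in WL711. Under drought it had 299.4, 420.7 and 494.2 in the tolerant bulk and 590.8, 487.9 and 537.1 in the susceptible bulk, against 433.1, 510.6 and 146.5 in C306 and 987.0, 1150 and 1292 in WL711. The WL711 arrays were above all others, and the C306 and bulk arrays overlapped. The LOC780636 member Ta.7339.1.S1_at was scattered, at 13.7 to 164.7 in the drought tolerant bulk alone, and of its 2 other probe sets Ta.7339.1.S1_x_at shared its direction in both regimes while Ta.7339.3.S1_a_at differed between the parents by −0.10 under drought.

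The rule did not set where the bulks lay between the parents, but it chose parental medians that were far apart. Positions are measured from those same medians, which favours bulks between the parents, so they are given as a description. On the linear signal scale, with WL711 at 0 and C306 at 1, the mean of both bulks had a median position of 0.378 under drought (quartiles 0.0311 and 0.729) and 0.428 under irrigation (quartiles 0.216 and 0.695). Single bulk arrays had median positions of 0.362 to 0.429 under drought and 0.408 to 0.495 under irrigation. The tolerant and the susceptible bulk had medians of 0.368 and 0.375 under drought and of 0.433 and 0.431 under irrigation, and the rule had set them equal. Members higher in C306 had median positions of 0.365 under drought and 0.434 under irrigation, and those higher in WL711 had 0.421 and 0.418.

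The bulk mean was between the parents at 134 members (67%) under drought and 171 (85.5%) under irrigation, with 116 in both. It was above the higher parent at 42 members under drought and 21 under irrigation, and at 10 of them in both regimes. It was below the lower parent at 24 and 8 members, with 1 in both. The 910 probe sets with a parental score as high but unequal bulks had median positions of 0.357 under drought and 0.462 under irrigation, and lay between the parents at 77.9% and 86.4%. Without the array labelled WL711 drought 1 the drought median of the members was 0.361, and 124 were between the parents, 40 above the higher parent and 36 below the lower.

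Members with larger parental differences had bulks nearer the middle under drought, which is given without a test because the score chose the members. The 68 members with a score over 2 had a median position of 0.556 under drought and 0.467 under irrigation, and 55 and 65 of them were between the parents. The 132 with a score of 2 or less had medians of 0.233 and 0.384, and 79 and 106 were between the parents. Without the array labelled WL711 drought 1 the drought medians were 0.555 and 0.229, with 55 and 69 members between the parents. In this second set the higher parent was dimmer, with a median signal of 146.2 under drought against 498.0 in the first set. Positions in the 2 regimes correlated with a Spearman rho of 0.477 over the 200 members, which share arrays within each regime.

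**Figure D4:**
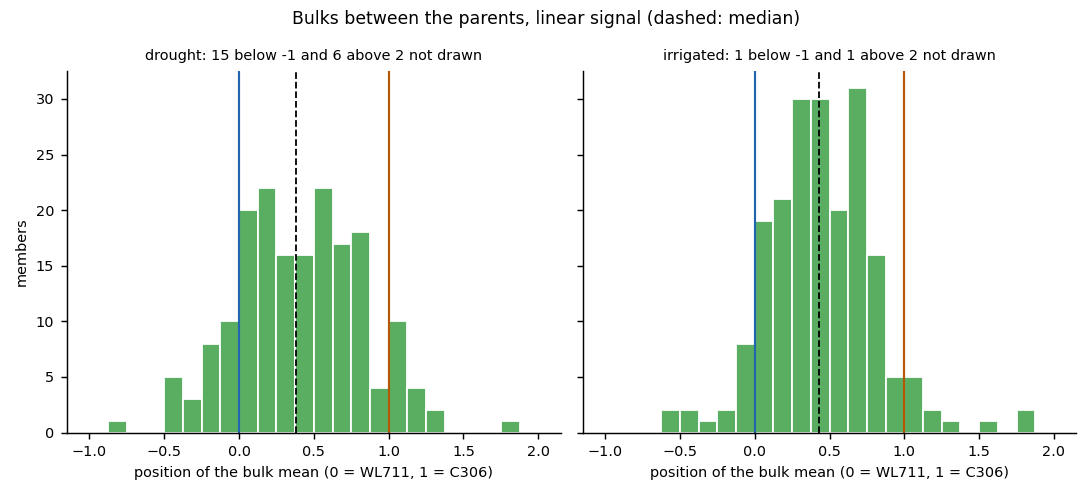
Number of members (vertical axis) by the position of the bulk mean between WL711 (0, blue line) and C306 (1, orange line) on the linear signal scale, under drought (left) and under irrigation (right), with the median as a dashed line. The medians are 0.378 under drought and 0.428 under irrigation, and the drought distribution has the wider tails.

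Against the mean of the parents on the log2 scale, the bulks were more often higher than lower at the members. The filter on dim probe sets, at a mean signal of 39.1, left 165 of the 200 members among 36669 tested probe sets. The other 35 members had no test. The filter took the mean of all 24 arrays, bulk arrays among them, so a member with dim bulks was more likely to be left out. This favours members with higher bulks in the counts that follow. Over both regimes 93 tested members passed limma's test at an adjusted p of 0.05, 72 of them higher in the bulks and 21 lower. Of all tested probe sets 41.8% passed, 18.3% higher and 23.5% lower. The median difference was 0.42 for the members and −0.09 for all tested probe sets. The split of all tested probe sets depended on the scaling. Without centring it was 8164 higher and 7063 lower, with medians of 0.49 for the members and −0.01 for all. Centred on the median of all probe sets it was 6559 and 7854, and under quantile normalization 7664 and 8143. Without the array labelled WL711 drought 1, 100 members passed, 78 higher and 22 lower, where 45.9% of all passed. Over all 200 members, from group medians without centring, the bulk mean minus the log2 mid-parent had a median of 0.28 under drought and 0.40 under irrigation. In the fit the 165 tested members had 0.46 and 0.35. An even mixture of unequal parents on the linear scale lies above the log2 mid-parent by arithmetic, here by a median of 0.31 under drought and 0.32 under irrigation over the 200 members. Against that arithmetic mid-parent the bulk mean had a median difference of −0.17 under drought and −0.03 under irrigation, with 77 and 114 members within 0.5.

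Under drought 80 members passed, 59 higher in the bulks and 21 lower, where 37.2% of all tested probe sets passed, 17.2% higher and 19.9% lower. Under irrigation 44 passed, 35 higher and 9 lower, where 20.6% of all passed, 7.81% higher and 12.8% lower. Centred on the median of all probe sets, all tested probe sets gave 7345 higher and 4994 lower under drought, and 2036 and 5851 under irrigation. Without centring they gave 7349 and 6434 under drought, and 4180 and 3429 under irrigation. Among the 77 tested members higher in WL711, 39 were higher in the bulks and 6 lower under drought. Among the 88 tested members higher in C306 the counts were 20 and 15. Leaving out the array labelled WL711 drought 1 gave 91 members under drought, where 41.9% of all passed, 20.3% higher and 21.6% lower. These were 40 higher and 7 lower on the WL711 side, and 29 higher and 15 lower on the C306 side. Under irrigation that fit gave 60 members, 50 higher and 10 lower, where 24.7% of all passed and 9.80% of all were higher.

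Ta.1929.1.S1_at had bulks above both parents in both regimes. Its drought signals were 1892, 1932 and 2597 in the tolerant bulk and 1660, 2125 and 1968 in the susceptible bulk, against 295.8, 212.3 and 262.9 in C306 and 56.3, 70.1 and 20.6 in WL711. Its irrigated signals were 4232, 5235 and 4258 in the tolerant bulk and 3983, 3641 and 4167 in the susceptible bulk, against 2243, 2382 and 2299 in C306 and 47.9, 5.4 and 40.3 in WL711. All 12 bulk arrays were above every parental array of their regime, and the difference to the mid-parent was 3.79 ± 0.15 (log2 ± SE, limma adjusted p = 6.27e-15). It was the one member with such separation among the 93 called over both regimes.

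Ta.28983.2.S1_at and Ta.28983.2.S1_x_at, 2 probe sets of the same transcript cluster number, lay above the parents under drought and between them under irrigation. The first had 1748, 1211 and 1241 in the tolerant bulk and 883.9, 944.2 and 876.3 in the susceptible bulk under drought, against 271.8, 59.4 and 464.0 in C306 and 3.5, 19.2 and 67.1 in WL711. Under irrigation it had 557.4 to 1080 on the bulk arrays against 1765 to 2067 in C306 and 0.6 to 1.5 in WL711. The bulk minus mid-parent difference under drought was 3.56 ± 0.32 for it (limma adjusted p = 5.13e-09) and 3.58 ± 0.27 for the second probe set (limma adjusted p = 2.65e-10), and 3.34 and 3.41 without the array labelled WL711 drought 1.

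Ta.4850.1.A1_at was lower in the bulks under drought. It had 718.7, 754.6 and 1194 in the tolerant bulk and 629.8, 1133 and 1071 in the susceptible bulk under drought, against 5908, 2782 and 3830 in C306 and 946.9, 1929 and 1474 in WL711. Its deposited bulk signals overlapped WL711 drought array 1 and were below the other 5 parental drought arrays, and after centring there was no overlap. The difference to the mid-parent was −1.45 ± 0.19 (limma adjusted p = 1.41e-06). TaAffx.59596.1.S1_at was lower in the bulks under irrigation, at 1937 to 2925 on the bulk arrays against 8427 to 9168 in C306 and 2627 to 2971 in WL711, with a difference of −1.10 ± 0.32 (limma adjusted p = 0.0146). Here too the bulks and WL711 overlapped in deposited signal and not after centring.

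Several of the 12 leading members, on both sides, had bulks above the log2 mid-parent, where an even mixture of unequal parents also lies by arithmetic. TaAffx.113846.1.S1_s_at differed by 3.43 ± 0.65 over both regimes (limma adjusted p = 0.000166), and by 4.21 without the array labelled WL711 drought 1. TaAffx.94115.1.S1_at differed by 2.29 ± 0.34, and by 2.70 without it. Ta.4077.3.S1_a_at differed by 1.29 ± 0.40 (limma adjusted p = 0.0124), and by 0.84 without it, and it missed the threshold with a pseudocount of 64 (limma adjusted p = 0.0677). Ta.3784.1.S1_at, Ta.4957.2.A1_at and TaAffx.4964.1.S1_at differed by 1.68 ± 0.08, 1.41 ± 0.10 and 2.14 ± 0.17. Ta.28695.6.S1_at (LOC542898) was 0.36 ± 0.12 above the log2 mid-parent (limma adjusted p = 0.0182) and Ta.6411.1.S1_at (LOC100125700) lay at −0.44 ± 0.15 (limma adjusted p = 0.0228). The second missed the threshold without centring, under quantile normalization and without the filter, at limma adjusted p of 0.054 to 0.0637. Against the arithmetic mid-parent, from group medians without centring, Ta.4077.3.S1_a_at lay at −0.467 under drought and −0.71 under irrigation. Ta.28695.6.S1_at lay at −0.887 and −0.204, and Ta.6411.1.S1_at at −0.717 and −0.779. TaAffx.113846.1.S1_s_at lay at −0.205 and 1.198, Ta.3784.1.S1_at at 0.153 and 0.499, and Ta.4957.2.A1_at at 0.42 and 0.0466. TaAffx.94115.1.S1_at lay at 1.903 and 0.999, and TaAffx.4964.1.S1_at at 0.772 and 0.544.

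Drought changed members in both directions, at shares near or below those of all tested probe sets. Averaged over the 4 materials, 62 of 165 tested members passed limma's test, 35 higher under drought and 27 lower. Of all tested probe sets 43.4% passed, 21.6% higher and 21.8% lower, beside 37.6% of the tested members. The median change was 0.12 for the members and 0.03 for all tested probe sets. Over the bulks alone 51 passed (30.9%), 34 higher and 17 lower, where 32.9% of all passed, 17.2% higher and 15.6% lower. Over the parents alone 52 passed (31.5%), 28 higher and 24 lower, where 31.4% of all passed, 15.1% higher and 16.3% lower. The parental split depended on the scaling: centred on the median of all probe sets, 12 members were higher and 28 lower, and the median change of all tested probe sets was −0.15. With C306 drought arrays 1 and 3 left out the parental count was 31. Without the array labelled WL711 drought 1 the counts were 79 over the 4 materials, 65 over the bulks and 60 over the parents, where 48.0%, 36.0% and 39.1% of all tested probe sets passed.

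The counts in the parents differed between the sides, a difference that was not tested. The 88 tested members higher in C306 counted 22 higher and 6 lower under drought, and the 77 higher in WL711 counted 6 higher and 18 lower. In the fit without the array labelled WL711 drought 1, in which 39.1% of all passed, the counts were 21 and 12 for the first and 9 and 18 for the second, and the median changes moved to 0.19 and −0.13 in place of 0.37 and −0.31. In the bulks the counts were 16 higher and 7 lower for members higher in C306, and 18 higher and 10 lower for members higher in WL711. In WL711 the median change was 0.53 for members higher in C306 and −0.37 for members higher in WL711, and 0.39 and −0.30 without that array. In C306 it was 0.11 and −0.16.

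Single members changed strongly, and a gene symbol stands here for its member probe set alone. Ta.23366.2.S1_x_at rose by 1.10 ± 0.11 over the 4 materials (limma adjusted p = 4.62e-08), and LOC542898 by 1.02 ± 0.12 (limma adjusted p = 2.61e-07). LOC100125700 rose by 0.68 ± 0.15 (limma adjusted p = 0.0008). LOC543320 and LOC780636 did not pass, with −0.26 (limma adjusted p = 0.344) and 0.42 (limma adjusted p = 0.378). Among the leading members Ta.23963.1.A1_at rose by 1.06 ± 0.22, Ta.9304.1.S1_at by 0.74 ± 0.19, Ta.4957.2.A1_at by 0.64 ± 0.10 and Ta.3784.1.S1_at by 0.39 ± 0.08, each past the threshold.

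The largest rise in the parents with separate arrays was that of Ta.28695.6.S1_at (LOC542898), 1.41 ± 0.17 (limma adjusted p = 1.8e-06). Next came TaAffx.128.1.S1_at at 1.22 ± 0.24 (limma adjusted p = 0.000453), which had 12282 to 21992 in C306 under drought against 6752 to 7966 under irrigation. In WL711 that member had 4746, 1152 and 1231 under drought against 829.2 to 897.8 under irrigation, and its change was 0.86 without drought array 1. The largest falls were TaAffx.56226.1.S1_at with −1.94 ± 0.34 (limma adjusted p = 0.000185; −2.24 without WL711 drought array 1) and TaAffx.110958.1.S1_at with −1.85 ± 0.29 (limma adjusted p = 4.33e-05). The second had 11.6, 67.7 and 17.4 in C306 under drought against 127.8 to 175.4 under irrigation, and 71.2 to 173.2 in WL711 under drought against 272.9 to 515.4.

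In the bulks Ta.5220.1.S1_at rose most, by 3.87 ± 0.28 (limma adjusted p = 1.88e-10). It had 5430, 5416 and 3891 in the tolerant bulk under drought against 311.9, 345.1 and 357.3 under irrigation, and 6384, 6815 and 7158 in the susceptible bulk under drought against 445.1, 466.0 and 452.1 under irrigation. The drought and irrigated arrays of both bulks were far apart. Ta.9117.1.A1_a_at fell most, by 2.06 on the log2 scale (SE 0.36, limma adjusted p = 9.64e-05), at 3.0 to 29.5 in the tolerant bulk under drought against 74.3 to 206.0 under irrigation and 8.8 to 61.4 in the susceptible bulk under drought against 127.5 to 154.8 under irrigation.

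The drought response of the bulks and that of the parents differed at 25 of the 165 tested members by the interaction in limma, 17 with the higher response in the bulks and 8 with the lower. Of all tested probe sets 10.0% passed, 6.21% higher and 3.81% lower. Centred on the median of all probe sets, the counts were 26 and 4, and the median of all tested probe sets was 0.22. Members higher in WL711, 77 of the 165 tested, made up 12 of the 17 and 3 of the 8. Without the array labelled WL711 drought 1, 36 members passed, 25 higher and 11 lower, where 14.2% of all tested probe sets passed, 9.03% higher and 5.17% lower. Members higher in WL711 then made up 14 of the 25 and 3 of the 11. Members higher in C306 with the higher response in the bulks numbered 11 in that fit, against 5 with the array.

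Ta.5220.1.S1_at had the largest difference, 2.88 ± 0.40 (limma adjusted p = 2.49e-05). Its parental arrays gave 331.2, 885.4 and 380.5 in C306 and 230.6, 1141 and 1215 in WL711 under drought, against 106.7, 157.1 and 128.5 in C306 and 657.5, 524.9 and 680.8 in WL711 under irrigation. Drought raised the C306 arrays above their irrigated ones, and the WL711 drought arrays lay on both sides of theirs. Ta.14543.2.A1_at had the largest negative difference, −2.64 ± 0.38 (limma adjusted p = 3.66e-05), and rested on C306. It had 59.1, 90.6 and 112.2 in the tolerant bulk and 58.5, 69.6 and 80.9 in the susceptible bulk under drought, against 2744, 1285 and 2444 in C306 and 25.1, 6.4 and 31.5 in WL711. Its irrigated arrays gave 100 to 163.4 in the bulks, 113.1 to 133.9 in C306 and 4.0 to 43.8 in WL711, so the C306 drought arrays alone stood high.

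**Figure D5:**
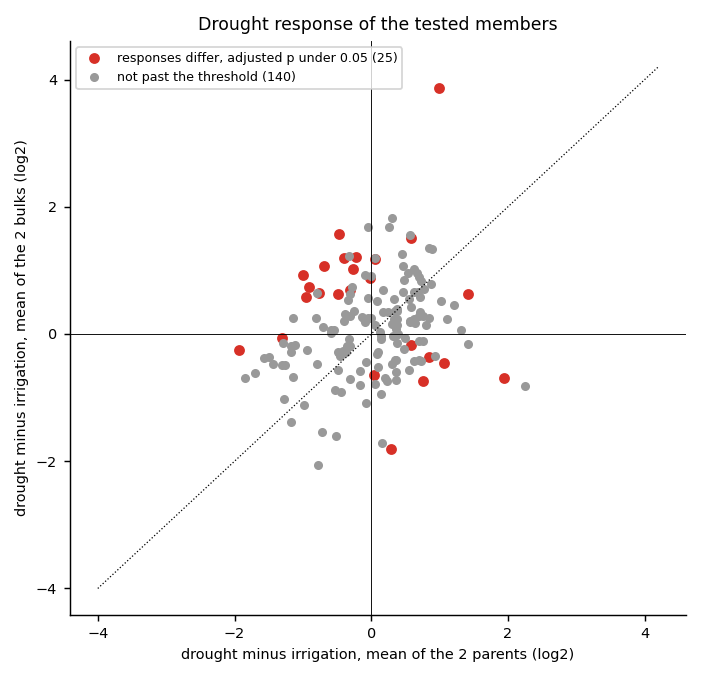
Drought minus irrigation in the mean of the 2 bulks (vertical axis) against the same change in the mean of the 2 parents (horizontal axis), in log2, for the 165 tested members; red points are the 25 members at which both responses differ past an adjusted p of 0.05, and the dotted line marks equal responses. Ta.5220.1.S1_at stands alone at the top, with 3.87 in the bulks and 0.99 in the parents.

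The members did not stand apart in the kind of probe set. The suffix _at, for a probe set meant for 1 transcript, was carried by 79.5% of the members and 79.2% of all 61115 probe sets. The suffix _x_at, for probe sets with probes that match other sequences, was carried by 11% of the members and 11.1% of all. The suffix _s_at, for probes shared by several transcripts, was carried by 4.5% and 4.3%, and _a_at by 5.0% and 5.4%. Names that start with Ta. made up 56.5% of the members and 51.4% of all.

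The number after the prefix names a transcript cluster, and 7 clusters held 14 members. In 6 of them both members had the same higher parent. The pairs at Ta.28983, Ta.3784, Ta.681 and TaAffx.53352 also shared the number that follows the cluster number. They differed in suffix alone, so their agreement does not come from separate sequences. TaAffx.64016 was the exception, with C306 minus WL711 at −3.11 under drought and −2.78 under irrigation for TaAffx.64016.1.A1_at and at 2.50 and 1.87 for TaAffx.64016.2.A1_at. The first read 1381 to 1635 on the drought bulk arrays against 283.0 to 404.1 in C306 and 2112 to 2700 in WL711, and the second 70.7 to 154.0 against 279.3 to 498.2 in C306 and 26.4 to 76.3 in WL711. The parental arrays did not overlap at either. A further 277 probe sets outside the members shared a cluster number with 78 members. Of these, 35 (12.6%) had a score over 1 in the direction of the member and 5 (1.8%) had it in the opposite direction, beside 3.82% of all probe sets with a score over 1. The cluster of a single member held 112 of the 277, with 1 of the 35 and 3 of the 5. Outside it, 34 of 165 (20.6%) had a score over 1 in the direction of the member and 2 (1.2%) in the opposite direction.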

How the data were processed

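RNA of 24 flag leaf samples was hybridised to 1-colour Affymetrix wheat arrays after biotin labelling, per the labels' protocols. The authors deposited a linear intensity for each probe set, computed with GCOS 1.2 per the submitters' processing notes. No scan date or hybridisation batch is given in the sources used here, and precision is limited by the number of arrays. The members and the lists were chosen with earlier results of these data known.

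Samples were grouped by their titles. The rule was applied to log2(signal + 16) of the deposited values. For tests, 175 control probe sets and the dimmest 40% by mean were left out, arrays were centred on their medians over the 36669 tested probe sets (medians 7.84 to 8.22 before), and limma 3.58.1 in R 4.3.3 fitted 8 group means over 24 arrays with an intensity trend, 16 residual degrees of freedom and Benjamini-Hochberg adjustment over all tested probe sets (threshold 0.05, two-sided). Fold changes on this scale understate the change of dim probe sets. C306 minus WL711 and tolerant minus susceptible bulk were not tested. The procedure was tested on simulated data. Tables and figures were made with Python 3.11.15, pandas 2.3.3 and matplotlib 3.10.9.

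Named were the members with a gene symbol, the 6 highest scores on each side, the members at the limits, and per comparison up to 3 called members with the largest change each way whose arrays did not overlap. For the mid-parent comparison this meant all 6 bulk arrays against all 6 parent arrays of a regime, and for responses drought against irrigated arrays in both materials of a pair. The cluster pair TaAffx.64016 was chosen after its values were seen. The alternatives covered centring, quantile normalization, the pseudocount, the filter, the intensity trend, the replicate number as a block, single arrays left out and the settings of the rule; the values by side without an array and the shares outside the largest cluster were chosen after seeing the data.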

Additional observations from a re-analysis of the deposited data

Results flagged for a closer look

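The drought response differed between bulks and parents by the interaction test in limma at 25 members, and the 7 members below were named among them. Ta.5220.1.S1_at differed by 2.88 (bulks 3.87, parents 0.99), Ta.5744.1.S1_at by 2.04 (bulks 1.57, parents −0.47) and TaAffx.59384.2.S1_s_at by 1.92 (bulks 0.92, parents −0.997). Without the array labelled WL711 drought 1 these were 2.52, 2.05 and 1.49. At TaAffx.59384.2.S1_s_at that array read 24.6, beside 245.1 and 245.2 on the other WL711 drought arrays.

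Ta.14543.2.A1_at differed by −2.64, with 3.91 in C306 against −0.02 in WL711 and −0.53 and −0.86 in the tolerant and the susceptible bulk. Ta.11657.1.A1_s_at differed by −2.10 (bulks −1.82, parents 0.29), and missed the threshold without the filter (limma adjusted p = 0.0578). Ta.4850.1.A1_at differed by −1.20 (bulks −0.36, parents 0.84). Ta.28695.6.S1_at, annotated to LOC542898, differed by −0.78 (bulks 0.63, parents 1.41, limma adjusted p = 0.0367), and by −1.01 without the array labelled WL711 drought 1. It missed the threshold under 21 alternatives, at limma adjusted p of 0.0503 to 0.186. The part of that array and of the bright spike-in controls on the C306 drought arrays in these differences was not tested further.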

How the results depend on the processing

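Of the 200 members the rule kept 108 with group means in place of medians, 127 with a pseudocount of 64, 75 with a bulk limit of 0.3 and 73 with a bulk limit of 1, and 149 to 178 with single arrays left out. Group means also put the drought median of the bulk position at 0.267, against 0.378 with medians, and it was 0.361 without the array labelled WL711 drought 1; these last settings for the position were chosen after seeing the data. The count of members changed by drought over the parents, 52, was 31 with C306 drought arrays 1 and 3 both left out and 34 with the parent arrays alone. In the first case calls over the whole table fell to 5785, against 11519 in the full fit, and calls of the response difference to 2323, against 3675; the cause was not tested. With single arrays left out, the counts ran from 55 to 79 for drought over the 4 materials, 41 to 60 over the parents, 39 to 65 over the bulks and 18 to 36 for the response difference. Bulk minus mid-parent counts ran from 88 to 100 over both regimes, 36 to 60 under irrigation and 72 to 91 under drought. The fit did not pair arrays by replicate number, and the labels do not say whether arrays of equal number belong together. Over 84 same-numbered pairs the deviations correlated with a median of 0.003 (−0.139 to 0.186). With the replicate number as a block the counts were 64, 50 and 50 for drought over the 4 materials, the parents and the bulks, 23 for the response difference, and 92, 43 and 80 for the mid-parent comparison over both regimes, under irrigation and under drought. Without the filter, which tests all 200 members, the parental drought split was 11 higher and 27 lower, and that of the response difference 21 and 2. Of 75 named results 11 missed the threshold under some alternative (82 of 2565 values) and 0 changed sign. Low signal limits the lower parent at most members, and the 35 members under the filter had no test.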
